A study of Rattus norvegicus with 16 samples.

Results

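The genes described here move calcium in and out of the sarcoplasmic reticulum of muscle fibres: sarcolipin (Sln), the calcium pumps it inhibits and the channel, storage and buffer proteins that work with them. They were chosen by symbol from a list of 10 named genes: Sln, Pln, Atp2a1, Atp2a2, Ryr1, Casq1, Casq2, Pvalb, Cacna1s and Cacng1. Of these, 9 were found among the 17147 genes of the deposited table, and Ryr1, the release channel, was not analysed here. RNA was sequenced from the supraspinatus, a rotator cuff muscle, of Sprague Dawley rats, in 16 libraries. There were 4 libraries from unoperated controls (0 days). The other 12 were taken 10, 30 or 60 days (4 each) after bilateral surgery in which the supraspinatus was torn through its full thickness and the suprascapular nerve was cut (neurectomy). The tear and the loss of nerve supply were made together, so their effects cannot be told apart, and the ages of the rats are not given in the sources used here. Nothing in the labels ties libraries to separate rats, so p-values measure the spread between these libraries.

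In a resting fibre, SERCA pumps (Atp2a1 in fast fibres, Atp2a2 in slow fibres and heart) return calcium to the sarcoplasmic reticulum. Sarcolipin and phospholamban (Pln) are small membrane proteins that bind SERCA and lower its activity. Calsequestrins (Casq1 in skeletal muscle, Casq2 in slow fibres and heart) hold calcium inside the store. The voltage sensor of the transverse tubule (Cacna1s with its gamma subunit Cacng1) opens the release channel, and parvalbumin (Pvalb) buffers calcium in the cytosol of fast fibres. Denervated muscle is known for lost fast-fibre gene expression and a return of genes of immature muscle.

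The values are raw fragments per gene. Library totals ran from 17184281 to 39903266 fragments, and all 4 libraries at 60 days (17184281 to 22386111) lay below the rest. A level of 3 fragments, taken as the floor, was 0.0752 to 0.175 CPM (fragments scaled to a library of 1000000). Levels below are CPM scaled by TMM, a method that sets the bulk of the genes level between libraries. The scale matters here, because a few very abundant muscle genes held a larger share of the fragments at 0 days. Dividing by library totals instead raises the median of all genes against 0 days by log2 0.66, 0.49 and 0.41 at 10, 30 and 60 days, and any direction that flips with it is named. Levels are not compared between genes, since fragments depend on gene length. Sln was put on the list for its rise over 0 days and the list was made with these comparisons known. Values of the members against 0 days are therefore descriptions, with a standard error (SE) from edgeR and no p-value. Comparisons between the operated groups were tested with edgeR's quasi-likelihood test, with Benjamini-Hochberg adjustment over all 11658 genes tested.

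Sln was low in unoperated muscle and much higher at every time after injury. It stood at 9.84, 7.63, 9.55 and 7.38 CPM in the 4 libraries at 0 days (154 to 214 fragments). At 10 days it stood at 681, 506, 421 and 563 CPM, and at 30 days at 759, 696, 687 and 908 CPM. Every operated library lay far above every unoperated one. At 60 days the values were 483, 505, 552 and 411 CPM, which overlapped with 10 days and lay below all 4 libraries of 30 days. The log2 fold changes against 0 days were 5.98 ± 0.18 (SE, 4 against 4 libraries), 6.47 ± 0.18 and 5.83 ± 0.18 at 10, 30 and 60 days, from comparisons that share the same 4 unoperated libraries. In linear terms this was 63.2-fold, 88.9-fold and 56.8-fold. Ranked among all genes tested, the difference had rank 44, 20 and 6 from the top in order of time.

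The order of Sln levels was 30, 10, 60 and 0 days, and only 10 and 60 days overlapped as neighbours. Sln rose from 10 to 30 days by log2 0.49 ± 0.14 (SE; edgeR adjusted p = 0.00876) and fell by 0.64 from 30 to 60 days (SE 0.14; adjusted p = 0.00404). The difference between 60 and 10 days was -0.15 ± 0.14 (adjusted p = 0.356). With library totals the 10- and 30-day libraries overlapped, the rise to 30 days missed the threshold (0.33, adjusted p = 0.0601), and Sln was lower at 60 than at 10 days (-0.41, adjusted p = 0.0178).

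**Figure D1:**
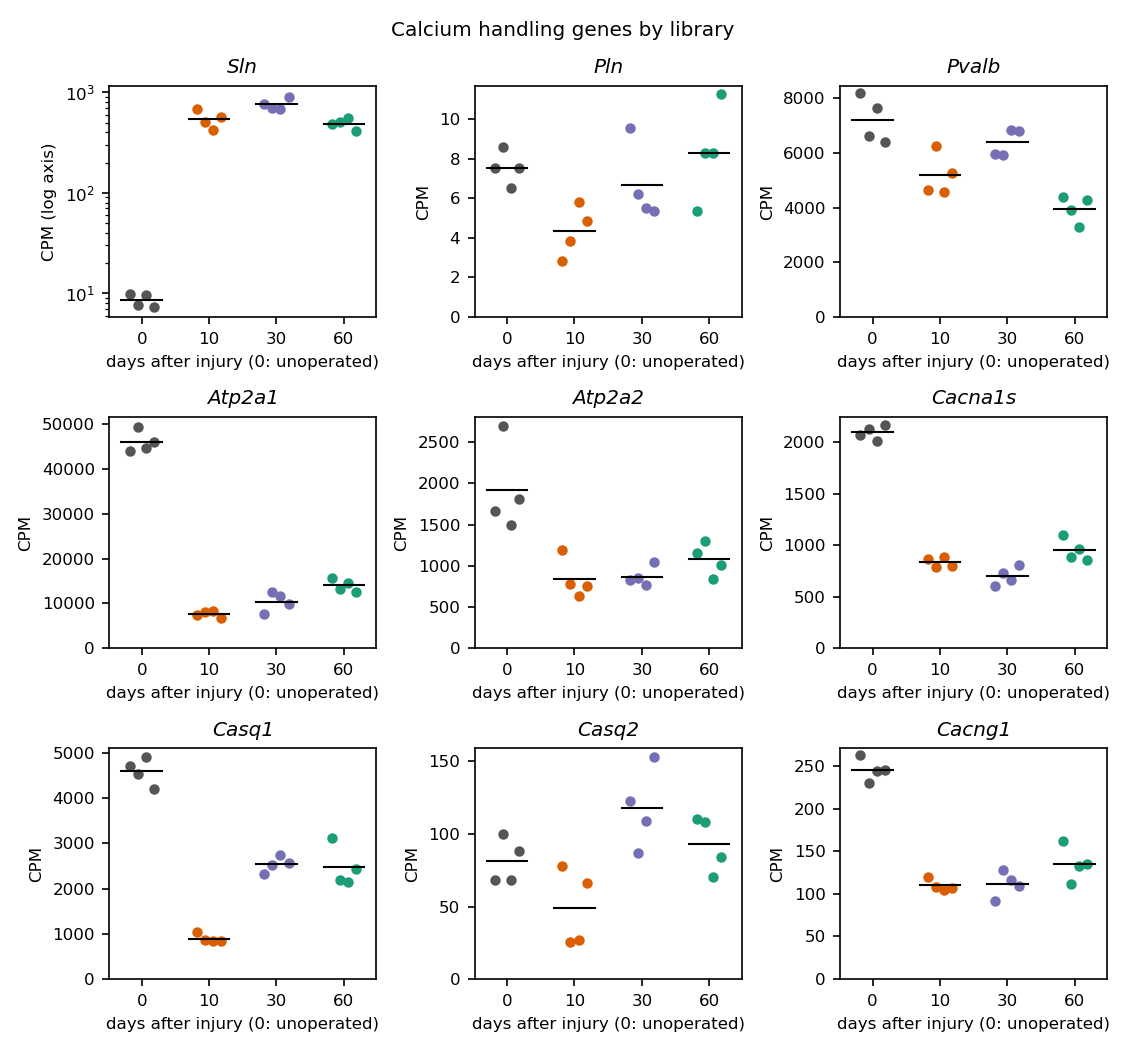
Level of the 9 members in each library (y axis, TMM-scaled CPM, on a log axis for Sln and from 0 for the others) by days after injury (x axis, 0 for unoperated). Each point is a library and each black line the mean of 4. Sln sits at 7.38 to 9.84 CPM at 0 days and at 411 to 908 CPM in all operated libraries, while Atp2a1, Atp2a2, Casq1, Cacna1s and Cacng1 lie below 0 days at every later time on this scale (with library totals, Atp2a2 overlaps).

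Pln, the other small SERCA inhibitor on the list, did not follow Sln. It rested on few fragments, 98 to 270 per library. Its mean was 7.54 CPM ± 0.845 (SD, n = 4) in unoperated muscle, then 4.33 ± 1.27, 6.65 ± 1.98 and 8.30 ± 2.41 in order of time. The 4 libraries at 10 days (2.84, 3.84, 5.80 and 4.83 CPM) lay below those at 0 days (7.53, 8.58, 6.51 and 7.52 CPM), and the later groups (9.57, 6.20, 5.48 and 5.35 CPM at 30 days, 5.35, 8.30, 8.30 and 11.2 CPM at 60 days) overlapped with 0 days. Against 0 days the log2 fold changes were -0.80 ± 0.24 (SE), -0.18 ± 0.24 and 0.14 ± 0.24 in order of time. With library totals they were -0.14, 0.32 and 0.56, so the direction at 30 days flipped, and the 10-day libraries overlapped with 0 days.

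From 10 to 60 days Pln rose by log2 0.94 ± 0.24 (SE; edgeR adjusted p = 0.00328). The rise from 10 to 30 days was 0.62 ± 0.24 (adjusted p = 0.0441). That call was lost without 0 days replicate 1 or 4, 10 days replicate 1, 2 or 4, 30 days replicate 1 or 2, or 60 days replicate 2 or 3, where it was 0.40 to 0.68 (adjusted p 0.0521 to 0.179). Library totals lost it too (0.47, edgeR adjusted p = 0.165), and in all 4 of the 11 alternative settings did so. Smooth muscle, which also expresses Pln, is a second possible source in whole tissue. The 5 smooth muscle genes listed (Myh11, Acta2, Tagln, Cnn1 and Smtn) summed to 309 to 403 CPM in unoperated libraries, then 139 to 198, 251 to 285 and 222 to 478 CPM in order of time. All 5 fell from 0 to 10 days and rose from 10 to 60 days by edgeR's test, and none was at 0 in any library. With library totals 2 fell and 1 rose in the first comparison, and 4 rose in the second. Their part in the Pln values was not tested. In whole tissue, fewer cells of a type and less RNA per cell cannot be told apart.

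The fast pump gene Atp2a1 lost most of its share of the fragments. It held 3.35% to 3.78% of them in unoperated libraries, then 0.814% to 1.03%, 0.866% to 1.31% and 1.34% to 1.52% at 10, 30 and 60 days. In CPM it stood at 44004, 49511, 44669 and 46166 in the unoperated libraries. At 10 days it stood at 7401, 8142, 8340.5 and 6766 CPM. At 30 days the values were 7518, 12429.7, 11611 and 9903 CPM, and at 60 days 15671, 13216, 14635 and 12504 CPM. Every operated library lay far below every unoperated one, and the 60-day libraries lay above the 10- and 30-day ones. The log2 fold changes against 0 days were -2.59 ± 0.15 (SE), -2.15 ± 0.15 and -1.72 ± 0.15, or 16.6%, 22.5% and 30.4% of the unoperated level.

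Atp2a1 rose again between the operated groups. At 60 days it was log2 0.87 ± 0.14 (SE) above 10 days (edgeR adjusted p = 6.85e-05), with no overlap of the libraries. The steps were 0.44 ± 0.14 from 10 to 30 days (adjusted p = 0.0194) and 0.43 ± 0.14 from 30 to 60 days (adjusted p = 0.0382), and neither step was firm. The first was lost without 10 days replicate 4 (0.38, adjusted p = 0.0622), 30 days replicate 2 (0.34, 0.0735) or 30 days replicate 3 (0.38, 0.0558), and with library totals (0.26, 0.0862). The second was lost without 30 days replicate 1 or 4 or 60 days replicate 1, 2 or 3 (0.31 to 0.46, adjusted p 0.0601 to 0.0963). Both steps were also lost when only the compared groups were fitted (0.43 at each, edgeR adjusted p = 0.0574 and 0.134). With the title letter as a covariate both were lost as well (0.41 and 0.46, edgeR adjusted p = 0.0540 and 0.0547).

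The slow and cardiac pump gene Atp2a2 was also lower after injury, by less. It stood at 1669, 2704, 1499 and 1814 CPM at 0 days and at 1195, 773, 635 and 759 CPM at 10 days. At 30 days it stood at 826, 847, 760.4 and 1043 CPM, and at 60 days at 1161, 1295, 845 and 1011 CPM. On the TMM scale every operated library lay below every unoperated one, and the operated groups overlapped with each other. Log2 fold changes against 0 days were -1.19 ± 0.21 (SE), -1.14 ± 0.21 and -0.83 ± 0.21. With library totals they were -0.54, -0.65 and -0.43, and each operated group overlapped with 0 days. None of the 3 differences between operated groups passed edgeR's test (0.05, 0.31 and 0.36 for 30 against 10, 60 against 30 and 60 against 10 days, adjusted p = 0.865, 0.299 and 0.141), and the first turned to -0.11 with library totals. Without 10 days replicate 1, the highest library of its group, Atp2a2 was higher at 60 than at 10 days (0.58, adjusted p = 0.0162). The highest unoperated library, replicate 2, also had the highest sum of the 7 slow-fibre contractile genes listed (11148 CPM, against 6958 to 8648 CPM in the other 3). At 10 days, replicate 1 likewise had the highest such sum (3230 CPM, against 1691 to 2671 CPM). The later groups matched less well. At 30 days replicate 4 was highest in both (sum 7729 CPM), but replicate 3, lowest in Atp2a2, had a sum of 7077 CPM. At 60 days replicate 3 was lowest in both (sum 4678 CPM). Atp2a2 was then highest in replicate 2 (sum 9503 CPM) and the sum in replicate 1 (9713 CPM). The part of slow fibres in these values was not tested.

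The regions just upstream of the pump and calsequestrin genes are shown because the members of each pair differed in their log2 fold changes against 0 days. The sequences are the 250 bases before the RefSeq start of each gene in assembly GRCr8, read 5′ to 3′ on the gene's own strand. Capitals mark E-boxes (CANNTG, the same on both strands), the motif bound by myogenic factors such as MyoD and myogenin. Atp2a1 is at chr1:190475411-190475660 (minus strand), Atp2a2 at chr12:39733269-39733518 (plus strand), Casq1 at chr13:87212711-87212960 (minus strand) and Casq2 at chr2:192214306-192214555 (plus strand).
Atp2a1: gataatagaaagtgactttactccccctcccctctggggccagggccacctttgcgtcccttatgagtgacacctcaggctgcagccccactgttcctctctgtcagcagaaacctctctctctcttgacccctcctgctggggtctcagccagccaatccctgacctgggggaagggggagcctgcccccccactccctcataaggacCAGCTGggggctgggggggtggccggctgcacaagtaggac
Atp2a2: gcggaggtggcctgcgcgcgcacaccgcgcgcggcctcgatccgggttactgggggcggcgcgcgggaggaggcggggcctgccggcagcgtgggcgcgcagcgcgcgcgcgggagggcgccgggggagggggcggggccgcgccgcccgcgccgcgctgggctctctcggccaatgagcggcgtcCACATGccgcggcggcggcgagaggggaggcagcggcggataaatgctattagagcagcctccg
Casq1: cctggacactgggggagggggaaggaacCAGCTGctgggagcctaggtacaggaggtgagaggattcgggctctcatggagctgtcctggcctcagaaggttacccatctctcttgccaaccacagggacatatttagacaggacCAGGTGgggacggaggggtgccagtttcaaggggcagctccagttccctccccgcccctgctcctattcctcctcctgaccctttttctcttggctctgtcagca
Casq2: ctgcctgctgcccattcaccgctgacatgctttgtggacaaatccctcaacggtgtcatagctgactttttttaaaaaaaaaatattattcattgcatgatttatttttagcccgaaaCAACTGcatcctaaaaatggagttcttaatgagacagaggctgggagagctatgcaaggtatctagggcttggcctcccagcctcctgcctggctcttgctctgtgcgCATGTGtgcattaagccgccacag

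Each pump gene has 1 E-box in this window, 41 bases before the start in Atp2a1 and 64 bases before it in Atp2a2. Casq1 has 2, at 222 and 105 bases, and Casq2 has 2, at 132 and 24 bases before the start, each counted from the first base of the motif. Of all 33469 rat promoters in the RefSeq table, 65.5% hold at least 1 E-box in the same window. Promoters were matched for 8 of the 10 listed genes, all but Sln and Cacng1, and each of the 8 had 1 or 2 E-boxes. The MCAT motif (CATTCC, either strand; in 12.1% of all promoters) and the TATA box letters (TATAAA, either strand; in 12.9%) were each found in 1 of the 8, Cacna1s. These matches describe letters and do not show that a factor binds.

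Casq1, the skeletal muscle calsequestrin, was much lower at 10 days and then came back part of the way. It stood at 4712, 4534, 4904 and 4201 CPM at 0 days and at 1029.9, 857, 849.6 and 843 CPM at 10 days. At 30 days it stood at 2325, 2513, 2748 and 2576 CPM, and at 60 days at 3113, 2185, 2152 and 2431 CPM. The 10-day libraries lay below all others, and 30 and 60 days overlapped with each other but not with 0 days. Against 0 days the log2 fold change was -2.36 ± 0.12 (SE) at first and -0.85 ± 0.12 and -0.89 ± 0.12 at 30 and 60 days. Casq1 rose from 10 to 30 days by log2 1.51 ± 0.12 (edgeR adjusted p = 1.72e-07) and was 1.46 ± 0.12 higher at 60 than at 10 days (adjusted p = 6.19e-08). From 30 to 60 days the difference was -0.04 ± 0.12 (adjusted p = 0.839). Both rises stayed past the threshold in all 11 alternative settings and all 16 fits without 1 library.

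Casq2, the calsequestrin of slow fibres and heart, varied most among replicates of the 9 members (pooled SD 0.50 on the log2 scale, against 0.13 to 0.37). It stood at 68.0, 99.7, 68.0 and 88.5 CPM at 0 days and at 77.9, 25.3, 27.1 and 65.9 CPM at 10 days. The 10-day libraries split into a pair inside or near the unoperated range and a pair far below it. At 30 days it stood at 123, 86.7, 109 and 153 CPM, and at 60 days at 111, 108, 70.7 and 83.9 CPM. Every operated group overlapped with 0 days. Log2 fold changes against 0 days were -0.72 ± 0.31 (SE), 0.54 ± 0.31 and 0.20 ± 0.31. With library totals they were -0.067, 1.04 and 0.61, and the 30-day libraries lay above all unoperated ones.

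Casq2 rose from 10 to 30 days by log2 1.26 ± 0.31 (SE; edgeR adjusted p = 0.00379), with no overlap of the libraries on the TMM scale and an overlap with library totals. At 60 days it was 0.93 ± 0.31 above 10 days (adjusted p = 0.0178), a call lost without 10 days replicate 2 (0.71, 0.0528), 10 days replicate 3 (0.73, 0.0541) or 60 days replicate 1 (0.83, 0.0585), and with library totals (0.67, 0.0774). The 10-day libraries with more Casq2, replicates 1 and 4, also had more of the 5 fibroblast genes listed (Col1a1, Col3a1, Pdgfra, Dcn and Lum), which summed to 2406 and 1943 CPM there. Replicates 2 and 3 had 820.5 and 1284 CPM. The slow-fibre sums of replicates 1 to 4 at 10 days were 3230, 2671, 1691 and 2272 CPM, in another order than Casq2. At 30 days replicates 1 and 4 had the most Casq2 and the smallest fibroblast sums (1331 and 1520 CPM, against 2145 and 1893 CPM). At 60 days so did replicates 1 and 2 (1447 and 1221 CPM, against 2050 and 2599.8 CPM). The 60-day slow-fibre sums, 9713, 9503, 4678 and 7953 CPM, were in the order of Casq2. At 0 days replicate 2 was highest in Casq2 and in both sums (929 and 11148 CPM). None of these genes was at 0 in any library, and their part in the Casq2 values was not tested. The 6 heart markers summed to 8.08 to 131 CPM in unoperated libraries, then 69.1 to 101, 54.2 to 155 and 53.0 to 204 CPM. Nppa, Nppb and Myl7 were at or near 0 in all groups, with group means of at most 0.0223 CPM. Of the 3 others, Myl4, which immature skeletal muscle also expresses, rose at every time by edgeR's test (log2 3.48, 3.83 and 2.74), Tnni3 rose at 10 and 60 days (1.01 and 1.25), and Myh6 did not pass (-0.95, -0.62 and 0.07). The part of these genes' sources in the Casq2 values was not tested.

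Cacna1s, the pore-forming voltage sensor, was well below its unoperated level at every time, with little spread. It stood at 2073, 2131, 2010.4 and 2165 CPM at 0 days, 863, 790.4, 881 and 800.3 CPM at 10 days and 607, 729, 665 and 807 CPM at 30 days. At 60 days it stood at 1100.2, 888, 958 and 858 CPM. The operated libraries all lay far below the unoperated ones. Log2 fold changes against 0 days were -1.33 ± 0.10 (SE), -1.58 ± 0.10 and -1.14 ± 0.10. Cacna1s rose from 30 to 60 days by 0.44 ± 0.10 (edgeR adjusted p = 0.00465). The fall from 10 to 30 days (-0.25 ± 0.10, adjusted p = 0.0464) was just past the threshold and did not hold once single libraries were dropped. In 13 of 16 such fits, all but those without 30 days replicate 4, 60 days replicate 1 or 60 days replicate 4, it was -0.18 to -0.27 (adjusted p 0.0520 to 0.133). At 60 days it was 0.19 ± 0.10 above 10 days (adjusted p = 0.103), past the threshold without 60 days replicate 4 (0.25, 0.0441), and turned to -0.066 with library totals.

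Cacng1, the gamma subunit that travels with Cacna1s, had a like course. It stood at 263, 231, 244 and 245 CPM in unoperated muscle and at 120.2, 108, 105 and 107 CPM at 10 days. At 30 days it stood at 92.1, 128, 116 and 109 CPM, and at 60 days at 162, 111, 132 and 135 CPM. The operated groups overlapped with each other and lay below all unoperated libraries. Log2 fold changes against 0 days were -1.16 ± 0.11 (SE), -1.14 ± 0.11 and -0.86 ± 0.11. Cacng1 rose from 10 to 60 days (0.30 ± 0.11, edgeR adjusted p = 0.0243), a call lost without 10 days replicate 2, 3 or 4 or 60 days replicate 1 (0.19 to 0.29, adjusted p 0.0521 to 0.0943) and with library totals (0.043, adjusted p = 0.712). Between 60 and 30 days the difference was 0.28 ± 0.11 (adjusted p = 0.0689), and it passed without 30 days replicate 2 (0.35, 0.0326) or 60 days replicate 2 (0.36, 0.0254). The step from 10 to 30 days was 0.01 ± 0.11 (adjusted p = 0.921), and -0.15 with library totals.

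Pvalb, a buffer of fast fibres, was lower at 10 days on the TMM scale only and lowest at 60 days on both scales. It stood at 8192, 6629, 7642 and 6377 CPM at 0 days and at 4655, 6230.3, 4564 and 5243 CPM at 10 days. At 30 days it stood at 5943, 5927, 6837 and 6791 CPM, and at 60 days at 4373, 3904, 3288 and 4278 CPM. The 60-day libraries lay below all others, while 30 days overlapped with 0 days. The 10-day libraries lay below all unoperated ones on the TMM scale and overlapped with them with library totals. Log2 fold changes against 0 days were -0.48 ± 0.13 (SE), -0.18 ± 0.13 and -0.86 ± 0.13. The first 2 directions rest on the scale: with library totals they were 0.18 and 0.31, as Pvalb held 0.488% to 0.635% of all fragments in unoperated libraries and 0.559% to 0.734% and 0.626% to 0.736% in the next groups. At 60 days it held 0.327% to 0.458%, and the value with library totals was -0.46.

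Pvalb fell from 30 to 60 days by 0.69 on the log2 scale (SE 0.13; edgeR adjusted p = 0.00146) and stayed past the threshold in all 11 alternative settings and all 16 fits without 1 library. It was also lower at 60 than at 10 days (-0.39 ± 0.13, adjusted p = 0.0154), a call lost without 10 days replicate 2 (-0.28, 0.0717) or 60 days replicate 3 (-0.31, 0.0604). From 10 to 30 days it was 0.30 ± 0.13 higher (adjusted p = 0.0620), and past the threshold without 10 days replicate 2 (0.40, 0.0218).

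**Figure D2:**
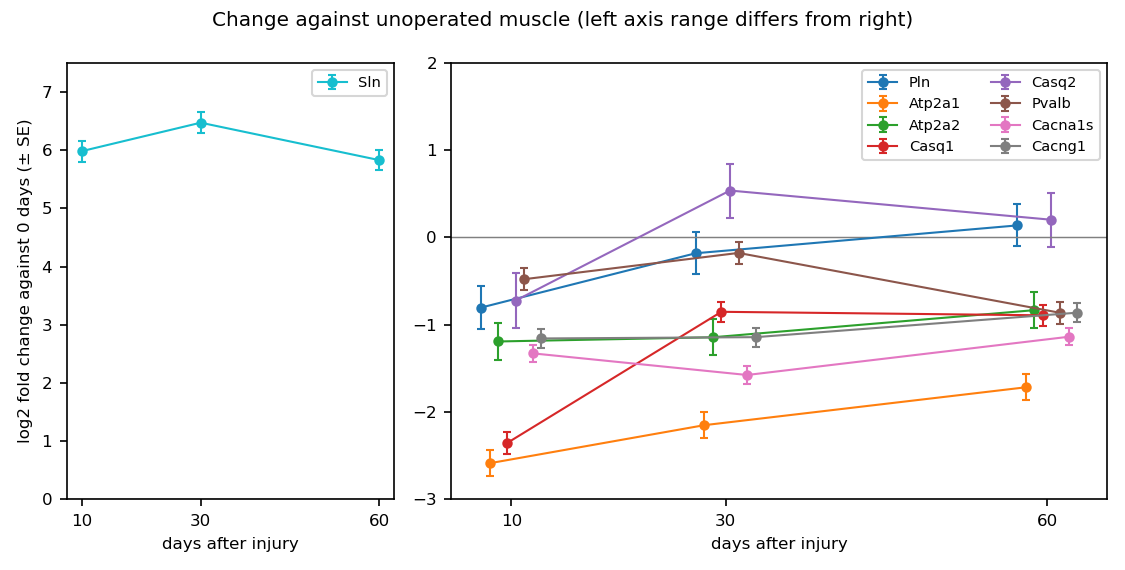
Log2 fold change against 0 days (y axis, edgeR estimate with SE as bars) at 10, 30 and 60 days (x axis, points shifted sideways for legibility), for Sln on the left and the other 8 members on the right, with axes of different range. Sln stays between 5.83 and 6.47, Atp2a1 climbs from -2.59 to -1.72, and Casq1 moves from -2.36 to -0.85 between 10 and 30 days.

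As a group the 9 members held 4.58% to 5.03% of all fragments in unoperated libraries, then 1.82% to 2.05%, 2.1% to 2.47% and 2.25% to 2.54% in order of time. Against 0 days, the fit over all genes placed 8 of 9 past its threshold at 10 days (1 higher, 7 lower), beside 62.7% of all genes. At 30 days it placed 6 there (1 higher, 5 lower), beside 64.6%, and at 60 days 7 (1 higher, 6 lower), beside 59.0%. Groups did not overlap for 8, 6 and 7 members, beside 59.0%, 60.2% and 50.0% of all genes. With library totals they did not for 5, 6 and 6 members (share of all genes not given here). With library totals the splits past the threshold were 1 higher and 5 lower, 3 higher and 5 lower, and 1 higher and 5 lower. On that scale 9348, 8754 and 8145 of all 11658 genes were past it. The members were chosen with these comparisons known, so these counts are no tests of them and nothing is read from them.

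Between the operated groups, 6 of 9 members differed from 10 to 30 days, 5 higher (Sln, Pln, Atp2a1, Casq1, Casq2) and 1 lower (Cacna1s), beside 47.3% of all genes (23.0% higher, 24.3% lower). From 30 to 60 days 4 of 9 differed, 2 higher (Atp2a1, Cacna1s) and 2 lower (Sln, Pvalb), beside 22.6% of all genes (10.3% higher, 12.4% lower). Between 60 and 10 days 6 of 9 differed, 5 higher (Pln, Atp2a1, Casq1, Casq2, Cacng1) and 1 lower (Pvalb), beside 61.1% (29.1% higher, 31.9% lower). The groups did not overlap for 3, 4 and 3 members, beside 43.8%, 20.1% and 51.2% of all genes. With library totals they did not for 2, 4 and 3 members (share of all genes not given here). With library totals the 3 splits of calls were 2 higher and 1 lower, 2 and 2, and 3 and 2, beside 5554, 2851 and 7363 of all 11658 genes called. The median log2 fold change of the members was 0.44, 0.28 and 0.36 in these comparisons, and that of all genes 0.03, -0.0066 and -0.0074. The first count was 3 of 9 without 10 days replicate 4 or without 30 days replicate 2, and the last was 3 of 9 without 10 days replicate 2.

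Ratios of fragments inside a library do not depend on how libraries are scaled, and 5 were taken. Their absolute size mixes level with gene length, so only their movement is described. The Sln/Atp2a1 ratio was 0.0154% to 0.0224% in unoperated libraries, then 5.05% to 9.21%, 5.60% to 10.1% and 3.08% to 3.82% in order of time. It was thus higher by far in every operated library. The 60-day ratios lay below all those at 10 and 30 days, with log2 differences of -1.01 ± 0.21 (SE) and -1.10 ± 0.23. The Pln/Sln ratio was 68.3% to 112% at 0 days and 0.419% to 2.74% in the operated libraries. The operated and unoperated libraries did not overlap.

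The ratios within the pump pair and within the calsequestrin pair were higher in operated muscle. The Atp2a2/Atp2a1 ratio was 3.36% to 5.46% in unoperated libraries, then 7.61% to 16.2%, 6.55% to 10.98% and 5.78% to 9.80% in order of time. The Casq2/Casq1 ratio was 1.39% to 2.20%, 2.95% to 7.83%, 3.45% to 5.94% and 3.29% to 4.95% in the same order. All operated libraries lay above all unoperated ones for each of these ratios, and the operated groups overlapped. The Pvalb/Casq1 ratio was 1.46 to 1.74 in unoperated libraries, then 4.52 to 7.27, 2.36 to 2.64 and 1.40 to 1.79. It was highest at 10 days, with no overlap between the operated groups, and at 60 days it overlapped with 0 days.

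The ratios were compared between operated groups by two-sided exact permutation tests, 15 in all. The smallest p that 4 against 4 libraries can give, 0.0286, was reached by Sln/Atp2a1 for 60 against 30 and 60 against 10 days and by Pvalb/Casq1 in all 3 comparisons. None of the 15 exact tests passed after Benjamini-Hochberg adjustment, where the smallest adjusted p was 0.0857. The log2 differences of Pvalb/Casq1 were -1.20 ± 0.15 (SE) for 30 against 10 days, -0.64 ± 0.090 for 60 against 30 and -1.84 ± 0.17 for 60 against 10 days. For Atp2a2/Atp2a1 and Casq2/Casq1 the exact p-values were 0.171 to 0.800, with differences of -0.49 to -0.095.

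**Figure D3:**
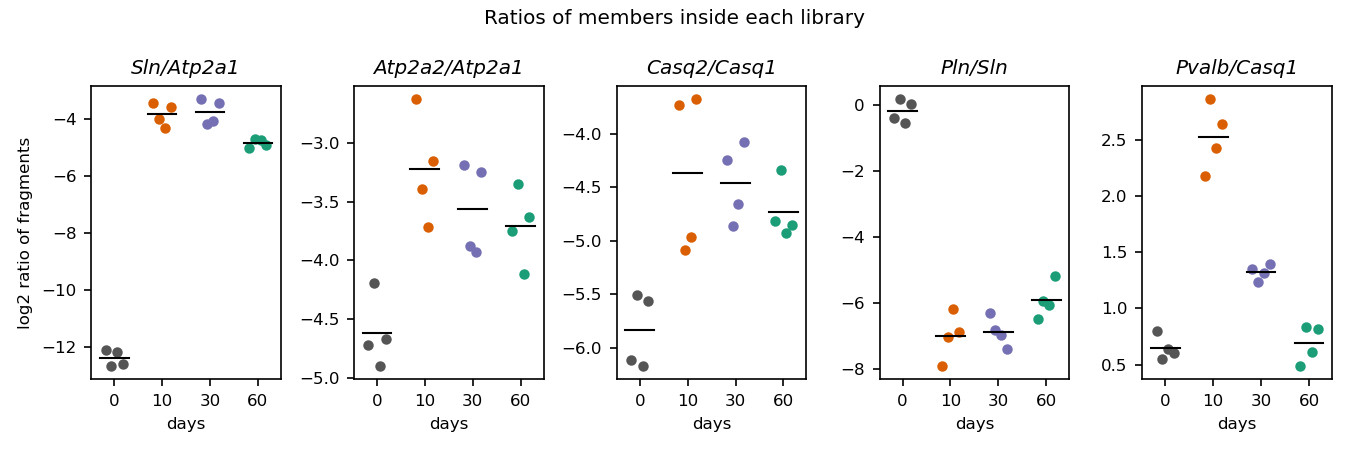
Log2 ratio of the fragments of 2 members inside each library (y axis, ranges differ between panels) by days after injury (x axis). Points are libraries and black lines means of 4. Sln/Atp2a1 and Pln/Sln separate all operated libraries from all unoperated ones, and Pvalb/Casq1 peaks at 10 days and is back at 0.49 to 0.84 at 60 days, beside 0.55 to 0.80 at 0 days.

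To place the members in their pathway, 62 other calcium handling genes were listed by function, of which 54 were tested against 0 days with edgeR. At 10 days 9 were higher and 29 lower, beside 33.3% and 29.4% of all genes. By 30 days 8 were higher and 30 lower (33.7% and 30.9%), and by 60 days 6 and 29 (29.9% and 29.1%). The medians of the list were log2 -0.47, -0.38 and -0.39, and those of all genes 0.06, 0.05 and 0.04. With library totals the splits were 22 higher and 18 lower, 21 and 15, and 18 and 18, so the excess of lower over higher genes rests on the scale. The medians of the list then turned to 0.19, 0.11 and 0.02, beside 0.72, 0.54 and 0.45 for all genes. On both scales the median of the list thus lay below that of all genes. Lower at all 3 times were 19 genes, and Orai2 was higher at all 3.

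The partners of the triad, where tubule and store meet, held the deepest fall of the 54 genes at each time, that of Jph2. Of 20 tested, 13, 11 and 11 fell and 4, 3 and 2 rose at 10, 30 and 60 days, against 9, 5 and 6 that fell and 6, 8 and 9 that rose with library totals. Jph2, a junctophilin that ties the store to the tubule, averaged 588 CPM ± 20.4 (SD, n = 4) at 0 days and 53.2 ± 9.80, 59.2 ± 15.9 and 88.3 ± 54.6 afterwards. It fell at each time, with log2 fold changes of -3.47, -3.31 and -2.73 (SE 0.32, 0.32 and 0.31; edgeR adjusted p = 1.71e-07, 3.54e-07 and 3.03e-06). Its relative Jph1 fell likewise (-1.54, -2.12 and -1.85). Cacna2d1, the alpha2-delta subunit of the voltage sensor, fell too (-0.73, -1.06 and -1.41), and its calls at 10 and 30 days were lost with library totals. Sypl2, a triad membrane protein, fell at each time (-1.46, -0.37 and -0.71), and at 30 days it turned to 0.13 with library totals.

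Against these falls, Cacnb1, the beta subunit of the same channel, rose at 10 days (1.37 ± 0.11, edgeR adjusted p = 2.11e-08) and 30 days (0.66 ± 0.11, 6.36e-05). It averaged 252 CPM ± 5.26 (SD, n = 4) in unoperated muscle, then 654 ± 57.2, 399 ± 29.3 and 232 ± 45.3. At 60 days its log2 fold change was -0.12 (adjusted p = 0.363; 0.29 and past the threshold with library totals). Tmem38b, a potassium channel of the store membrane, rose at 10 days (1.68 ± 0.17, adjusted p = 2.56e-07) and 30 days (0.83 ± 0.16, 0.000338), with 0.08 at 60 days (0.708; 0.48 and past the threshold with library totals). Itpr1, an inositol trisphosphate receptor, rose at 10 days (0.42, edgeR adjusted p = 0.000202) and 30 days (0.26 ± 0.08, 0.00843). At 60 days it was 0.18 (0.0595), which passed with library totals (0.59). Cacna1h, a T-type calcium channel, fell at 10 days (-1.30) and 30 days (-0.55, lost with library totals) and was higher at 60 days (0.72 ± 0.16, adjusted p = 0.00140).

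Of 13 other pumps, exchangers and entry channels tested, 8, 6 and 6 fell and 2, 1 and 2 rose, against 4, 2 and 3 that fell and 5, 5 and 3 that rose with library totals. Orai2, a store-operated calcium channel subunit, averaged 1.69 CPM ± 0.508 (SD, n = 4) in unoperated muscle and 8.12 ± 1.46, 6.42 ± 1.39 and 3.81 ± 0.893 afterwards. It rose by log2 2.24 ± 0.23 (SE; edgeR adjusted p = 2.76e-07), 1.90 ± 0.23 (2.33e-06) and 1.15 ± 0.24 (0.000560). Atp2b3, a plasma membrane calcium pump, fell at each time (-2.46, -1.38 and -1.39). Atp2b4, of the same family, rose by 0.64 ± 0.16 at 60 days (adjusted p = 0.00223) after a fall at 10 days (-0.55) that turned to 0.11 with library totals.

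Among 16 sensors, buffers and calcineurin genes, 7, 10 and 9 fell and 1, 3 and 1 rose, against 4, 7 and 7 that fell and 7, 6 and 4 that rose with library totals. Calm3, one of 3 calmodulin genes, fell at each time (log2 -1.45, -1.83 and -2.01), as did the kinase subunit Camk2a (-1.95, -1.77 and -1.54). Camk2g fell at each time (-0.85, -1.76 and -1.79), the first call being lost with library totals. Camk2b of the same kinase rose at 10 days (0.52 ± 0.16, edgeR adjusted p = 0.00926). At 30 days it was 0.13 (0.490), which passed with library totals (0.63). It fell at 60 days (-0.45, edgeR adjusted p = 0.0252), a call lost with library totals (-0.047). Sri, sorcin, rose at 30 and 60 days (0.71 at each, adjusted p = 0.000580 and 0.000785), with 0.12 at 10 days (0.487), which passed with library totals (0.79). Of 5 mitochondrial uptake genes, 1, 3 and 3 fell and 2, 1 and 1 rose, against 1, 1 and 2 that fell and 4, 2 and 2 that rose with library totals. Mcu, the pore of the mitochondrial calcium uniporter, rose at 10 days (0.69 ± 0.14, edgeR adjusted p = 0.000358), with 0.10 and 0.05 at the later times, which passed with library totals (0.60 and 0.46).

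**Figure D4:**
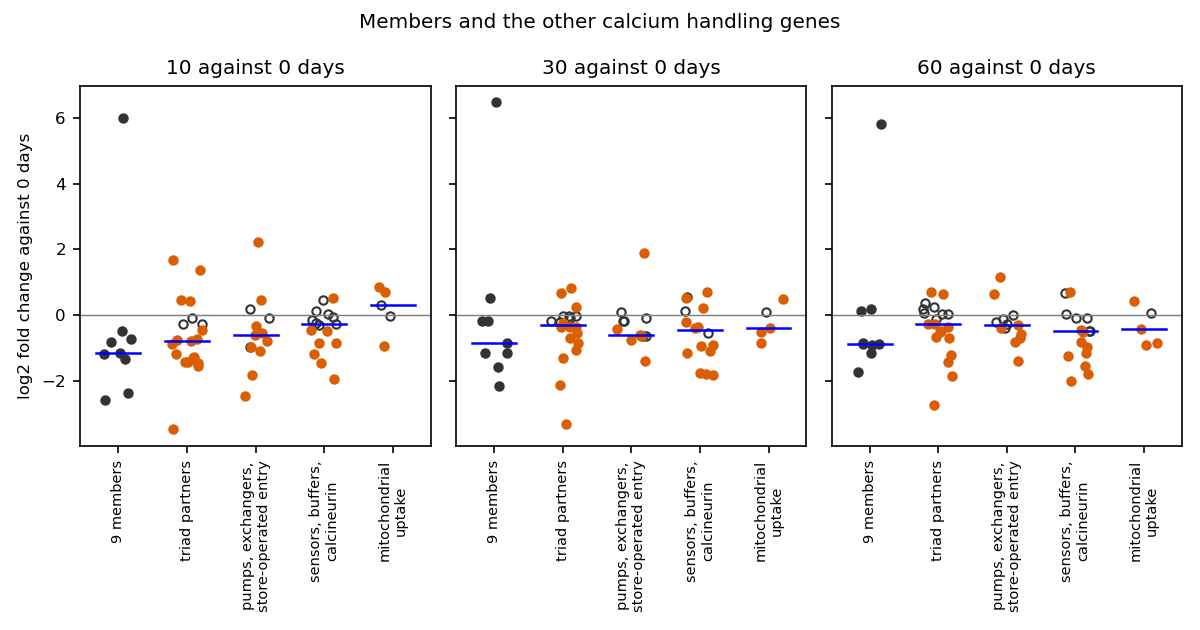
Log2 fold change against 0 days (y axis) of the 9 members and of the 54 other calcium handling genes in 4 functional lists (x axis), in a panel for each time. Filled orange points passed edgeR's adjusted threshold of 0.05, open points did not, black points are members (shown without calls) and blue lines are list medians. Sln, near 6, lies above every other gene plotted at all 3 times, and the lowest triad point at each time is Jph2.

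The label of skeletal muscle was met by the 4 of its 6 listed markers that were analysed. Acta1, Ckm, Des and Mb summed to 111780 to 120667 CPM in unoperated libraries, then 32167 to 38975, 59505 to 83836 and 70151 to 96465 CPM. Acta1, Ckm and Des fell at each time (Des was higher at 10 days with library totals), and Mb, myoglobin, rose (log2 0.50, 1.01 and 0.49). At 60 days only 2 of the 4 were called lower with library totals, and 1 higher. The 9 fast-fibre contractile genes listed all fell at 10 days, as did the 7 slow-fibre genes, with medians of log2 -1.59 and -1.84. At 60 days 4 fast-fibre genes were lower and 1 higher (2 and 3 with library totals). Their median was -0.23, and it turned to 0.18 with library totals. The slow-fibre median was then -0.0061 (0.40 with library totals). The fast-fibre sums were 166071 to 185262, 50348 to 53431, 86966 to 123706 and 107116 to 124695 CPM in order of time, and the slow-fibre sums 6958 to 11148, 1691 to 3230, 5126 to 7729 and 4678 to 9713 CPM. Both sums were lowest at 10 days, as were Pln, Atp2a1, Atp2a2, Casq1, Casq2 and Cacng1 in mean level. With library totals the means of Atp2a2 and Cacng1 were lowest at 30 days instead. Sln was lowest at 0 days, Cacna1s at 30 days and Pvalb at 60 days. The part of overall contractile transcript loss in the members' values was not tested.

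Marker genes of other cell types also differed from unoperated muscle, some of them only at some times. The 5 fibroblast genes summed to 429 to 929 CPM in unoperated libraries and 820.5 to 2599.8 CPM in operated ones. The 5 macrophage genes measured summed to 12.7 to 23.5 and 42.7 to 88.2 CPM. The 4 adipocyte genes summed to 7.42 to 41.5 CPM in unoperated libraries, then 8.73 to 24.6, 11.5 to 27.8 and 49.6 to 119 CPM. The 5 Schwann cell genes summed to 50.6 to 79.9 CPM, then 22.7 to 44.1, 47.2 to 81.6 and 93.8 to 214 CPM, and 2 of them fell at 10 days, 2 rose at 30 days and 5 rose at 60 days. With library totals 1 fell and 2 rose at 10 days. The 4 endothelial genes summed to 197 to 239.8 CPM, then 105 to 166, 154 to 178 and 171 to 264 CPM, and 4 fell at 10 days (1 with library totals). No gene of these lists was at 0 in any library, and the part of these cells in the members' values was not tested.

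The genes whose course was nearest to that of Sln were Fst, Cdkn1a, Klk1c7, Ankrd1 and Krt18. Nearness was the root mean square difference over the 16 libraries of log2 CPM, each gene centred on its own mean, and it was 0.59, 0.61, 0.74, 0.76 and 1.05 on the log2 scale. Fst, which encodes follistatin, averaged 0.910 CPM ± 0.395 (SD, n = 4) at 0 days and 40.7 ± 9.81, 36.5 ± 15.2 and 31.3 ± 5.33 afterwards. Cdkn1a, a cell cycle inhibitor, averaged 46.9 ± 12.0 CPM at 0 days and 1695 ± 222, 1698 ± 202 and 1238 ± 643 afterwards. The nearest to Pvalb were Tmem161a, Tm2d3, Ubl4a, Coq2 and Vamp1, at 0.17 to 0.20. Tmem161a averaged 72.0 CPM ± 2.58 (SD, n = 4) at 0 days, 61.5 ± 5.28, 71.3 ± 4.86 and 44.3 ± 2.89 at 10, 30 and 60 days. These are descriptions of course over time, across libraries that share their groups.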

How the data were processed

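RNA was isolated from supraspinatus muscle and polyA-selected libraries were made, per the labels' protocols. The authors deposited a table of raw fragments per gene, here treated as estimated counts (expected counts), not scaled for depth or length. TopHat2 2.0.9, Bowtie2 2.1.0.0, Cufflinks, Cuffdiff 2.1.1 and build rn5 are named in the submitters' processing notes. Annotation, strand use and filters are not given in the sources used here. Counts of genes with close relatives, such as the calmodulin genes, depend on how shared reads were assigned. Of 17147 genes, 233 have a fractional value, and values were rounded.

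Groups follow the time in the labels. Replicate numbers follow accession order within a group and were not treated as pairs in the main fit. The filter filterByExpr kept 11658 genes. All 16 libraries entered 1 model in edgeR 4.0.16 (R 4.3.3) with TMM factors, robust quasi-likelihood estimation and no covariate. A gene was called at an adjusted p under 0.05. CPM are TMM-scaled. Ratios added 0.5 to each count and were tested by exact permutation (scipy 1.17.1). The fitting script was tested on simulated data.

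The members and lists were chosen with earlier results of these data known. Named pathway genes were the 6 largest rises and 6 largest falls at each time against 0 days among those called, without overlap and with a mean of at least 5 CPM. The nearest 5 genes to Sln and Pvalb came from genes with the same minimum, leaving out accession, LOC and RGD names. Members, marker lists and genes that are given for contrast stand outside that rule. Alternatives were RLE and upper-quartile factors, library totals, DESeq2 1.42.0, limma-voom (limma 3.58.1), other filters, no robust estimation, the compared groups alone, a replicate block, the title letter and leaving out each library. Floors cover counting error only. A gene that the naming rule picks is not reported here. The Ryr1 ratio and the other 8 listed pathway genes were not analysed here. Figures used matplotlib 3.10.9 and promoters came from RefSeq, GRCr8.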

Additional observations from a re-analysis of the deposited data

Results flagged for a closer look

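Casq1 at 10 days had 1 library apart from the other 3. Replicate 1 stood at 1029.9 CPM and the others at 843 to 857 CPM, and the gap was 0.913 of the whole range on the log2 scale, above Dixon's 95% limit for 4 values. In all, 56 groups of 4 were checked, and chance flags about 1 in 20. The same library had the most Sln (681 CPM), Atp2a2 (1195 CPM) and Casq2 (77.9 CPM) of its group and the largest fibroblast sum (2406 CPM), and the least Pln (2.84 CPM).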

How the results depend on the processing

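Of the members' 27 differences between operated groups, the 11 other settings kept the side of the threshold in 270 of 297 fits, while 18 lost a call and 9 gained one. Leaving out each library gave 388 of 432 the same, 39 lost and 5 gained. No called difference between operated groups changed direction in any of these. Against 0 days the one called value that reversed was Pvalb at 10 days, 0.18 with library totals. The count of members called for 30 against 10 days, 6, was 3 with library totals and 3 when only the compared groups were fitted. Without each library in turn the counts ran from 3 to 6 for 30 against 10 days, 3 to 5 for 60 against 30 days and 3 to 7 for 60 against 10 days, and, against unoperated muscle, from 8 to 9, 6 to 6 and 7 to 7. The pathway counts ran from 34 to 42, 33 to 39 and 31 to 40. The cause was not tested. With the replicate block, taken from the number that ends each column name, 4, 4 and 6 members were called between operated groups, the calls lost being those of Pln and Cacna1s for 30 against 10 days. Libraries sharing a number had a mean correlation of 0.0013 over 24 pairs (-0.24 to 0.22), and 72 pairs with other numbers ran from -0.37 to 0.28. No pairing by number was seen, but a mean near 0 cannot exclude one. Of the ratio tests 0 passed under any added count. The nearest genes to Sln were all 5 the same with library totals and 4 of 5 with a prior count of 0.5, and for Pvalb 5 of 5 with each. Depth limits Pln most, at 98 to 270 fragments.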
